A study of Mus musculus with 2 samples.

Results

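The SoxE genes *Sox8*, *Sox9* and *Sox10* encode 3 closely related transcription factors, and they are described here in single cells of the boundary cap cell lineage. They are 3 of the 33207 genes counted, were chosen by name, and were followed from glia through *Neurog1*-positive progenitors to *Isl1*-positive neurons and into pericyte- and mesenchymal-like cells. The study was about how motor nerves bear on the building of the sympathetic chain, and these traced cells were sequenced to look for Schwann cell precursors on nerves that come from boundary cap cells (BCCs), which sit where nerve roots meet the spinal cord. Tomato-positive cells were sorted from meninges dissected together with dorsal root ganglia (DRG) and nerve roots, and 10x 3′ v2 libraries were made at E11.5 and at E12.5. Both libraries came from untreated *Egr2Cre/+*; *Rosa26RTom* embryos, in which Cre from 1 *Egr2* (*Krox20*) allele switches on Tomato in cells that express or once expressed *Egr2*, and in their descendants. Each stage is 1 library of 1 pooled litter, so stage, litter and library cannot be told apart, no test was made, and every interval covers counting error only. Tomato was not among the counted genes.

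SoxE proteins bind DNA through a high-mobility-group (HMG) box. In the neural crest they maintain multipotent progenitors, and *Sox10* is needed for all peripheral glia, where it activates genes such as *Erbb3*. Sensory neurons lose *Sox10* as they form, *Neurog1* being a proneural factor that starts their differentiation and *Isl1* a LIM homeodomain factor of early peripheral neurons. *Sox9* is best known from chondrocytes and other mesenchyme, and *Sox8* acts beside *Sox10* in glia.

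The labels call the sorted cells boundary cap cells of the meninges. After filtering, 833 cells were left at E11.5, with 9541971 unique molecular identifiers (UMIs, each a counted mRNA molecule) and a median of 11601 per cell, and 3496 cells at E12.5, with 22456846 UMIs and a median of 6140. They formed 11 and 16 clusters, which were named by marker genes, with the SoxE genes, *Neurog1*, *Neurog2* and *Isl1* kept out of the clustering. Glia-like clusters held 539 cells at E11.5 and 1664 a day later, and neuron-like clusters 233 and 1419. Cells of other classes were present as well, namely 61 and 38 pericyte-like cells and, at E12.5, 185 mesenchymal-like and 36 myeloid-like cells. Whether these cells descend from boundary cap cells was not tested. A last cluster of 154 cells at E12.5 stayed unnamed. The label thus covers a mixture, and the BCC markers *Prss56* and *Egr2* were highest in only some of the glia-like clusters. Of the cell barcodes, 9 occurred in both libraries and 7 of those were kept in both.

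The 3 genes lie on different chromosomes (GRCm39). *Sox8* (ENSMUSG00000024176) spans chr17:25784634-25789726 on the minus strand, *Sox9* (ENSMUSG00000000567) chr11:112673009-112678586 on the plus strand and *Sox10* (ENSMUSG00000033006) chr15:79039108-79049469 on the minus strand. Their coding sequences are most alike within the HMG box. The 120 bases shown here are the stretch with the most shared bases, written in sense orientation 5′ to 3′ from the canonical GENCODE transcripts, with capitals for bases that are the same in all 3 genes. They show how close the paralogs are where reads could be shared between them.
Sox8: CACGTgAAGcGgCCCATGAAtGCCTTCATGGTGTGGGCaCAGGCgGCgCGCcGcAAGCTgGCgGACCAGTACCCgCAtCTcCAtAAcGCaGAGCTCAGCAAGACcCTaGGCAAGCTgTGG
Sox9: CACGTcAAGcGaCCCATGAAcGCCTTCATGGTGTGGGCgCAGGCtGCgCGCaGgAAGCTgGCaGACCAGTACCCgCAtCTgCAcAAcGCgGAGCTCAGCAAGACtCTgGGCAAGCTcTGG
Sox10: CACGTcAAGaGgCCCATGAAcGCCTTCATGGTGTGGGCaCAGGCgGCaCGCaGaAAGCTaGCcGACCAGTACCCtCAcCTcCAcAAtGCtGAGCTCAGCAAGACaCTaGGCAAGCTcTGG
The stretches are at chr17:25789086-25789205 (*Sox8*, exon 1 of 3), chr11:112673720-112673839 (*Sox9*, exon 1 of 3) and chr15:79047491-79047610 (*Sox10*, exon 2 of 4). Of the 120 bases, 100 (83.3%) were the same in all 3 genes, and the pairs shared 106 (*Sox8* with *Sox9*) or 105 (each of them with *Sox10*). The longest identical run between any pair of transcripts was 44 bases, shared by *Sox9* and *Sox10*. The stretches end 2657, 3345 and 2005 bases before the 3′ ends of the *Sox8*, *Sox9* and *Sox10* transcripts, whereas a 3′ library reads mainly the end of a transcript.

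All 3 genes were highest in the glia-like cells. Levels are given as CPM, that is, all UMIs of the gene in a class of cells scaled to 1000000 UMIs of that class, with 95% exact Poisson intervals. *Sox10* reached 309 CPM (296–324, from 1928 UMIs) in glia-like cells at E11.5 and 318 (307–329, 3298 UMIs) a day later. In neuron-like cells it was 18.9 CPM (14.1–24.7, 52 UMIs) and 15 (12.7–17.7, 144 UMIs). The glia-like level of *Sox10* was therefore 16.4 times (12.5–22.0) the neuron-like level in the E11.5 library and 21.1 times (17.9–25.2) in the E12.5 library, with class intervals far apart at both stages. With coarser clusters (Leiden resolution 0.5) the E11.5 ratio was 6.84.

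*Sox9* showed a similar separation at a lower UMI number. It was at 37.1 CPM (32.5–42.2, 231 UMIs) in glia-like cells at E11.5 and 22.2 (19.5–25.3, also 231 UMIs) a day later. In neuron-like cells only 6 and 12 UMIs were found, or 2.18 CPM (0.799–4.74) and 1.25 (0.647–2.19), giving ratios of 17.0 (7.71–46.9) and 17.8 (9.98–34.9). *Sox8* was at 11.2 CPM (8.76–14.2, 70 UMIs) in glia-like cells at E11.5 and 20.9 (18.2–23.9, 217 UMIs) a day later. Its neuron-like levels were 1.81 CPM (0.589–4.23, 5 UMIs) and 1.04 (0.5–1.92, 10 UMIs), and the ratio was 20.04 (10.7–42.4) at E12.5 and 6.19 (2.53–19.7) at E11.5, where fewer than 100 UMIs stand behind it. Between the libraries, the glia-like level was lower for *Sox9* and higher for *Sox8* at E12.5 without overlap of the intervals, while the intervals of *Sox10* overlapped.

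Over all genes with at least 100 UMIs in both classes together, 15% were at least 2-fold higher in glia-like than in neuron-like cells (E11.5 library), and 8.33% were at least 2-fold lower. At E12.5 the shares were 19.9% and 11.7%. All SoxE genes with enough UMIs (2 at E11.5, 3 at E12.5) were on the higher side. The shares of cells with a UMI followed the same order. After thinning every cell to 2000 UMIs, so that depth does not set the share, 48.1% (E11.5) and 45.8% (E12.5) of glia-like cells had *Sox10*, and 4.29% and 1.92% of neuron-like cells did. The unthinned shares were 87.9% and 78% against 18.5% and 8.46%, at median depths of 12015 and 5941.5 UMIs in glia-like and 11781 and 6485 in neuron-like cells. Thinned shares of *Sox9* were 6.68% and 3.98% among glia-like cells, beside 0 of 233 neuron-like cells at E11.5 (which allows up to 1.29%) and 0.442% at E12.5. *Sox8* was in 2.6% and 3.92% of thinned glia-like cells and in 0.858% and 0.442% of neuron-like cells. Unthinned, 25.4% and 10.9% of glia-like cells had *Sox9* and 10.4% and 10% had *Sox8*, beside 2.58% and 0.846% (*Sox9*) and 2.15% and 0.634% (*Sox8*) of neuron-like cells.

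Most cells that were positive for *Sox8* or *Sox9* held a single UMI. This was so for 80.4% of *Sox8*-positive glia-like cells at E11.5 and 80.8% a day later, and for 65.7% and 78.5% of *Sox9*-positive cells, with at most 11 and 4 *Sox9* UMIs in a cell. *Sox10*-positive glia-like cells had a median of 4 UMIs at E11.5 and 2 a day later, up to 15 and 12. *Sox10*-positive neuron-like cells were unlike these, since at E11.5 only 1 UMI was found in 36 of 43 (83.7%), and a day later in 103 of 120 (85.8%).

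The glia-like clusters differed among themselves most in *Sox8* and least in *Sox10*. At E12.5, clusters 3 and 4 had the highest *Sox8*, at 56.9 CPM (46.6–68.9) and 43.1 (32.2–56.6), against 6.29 to 10.7 CPM in the remaining 4. They are led by *Slc36a2*, *Zpld1* and *Dlx2* and carried the highest levels of *Egr2* (67.3 and 83.8 CPM) and of *Prss56* (424 and 375 CPM), which encodes a secreted serine protease of BCCs. Taken as a pair, a grouping made after the values were seen, they made up 33.6% of the glia-like cells and 29.4% of their UMIs but held 157 of the 217 *Sox8* UMIs (72.4%). Their *Sox8* level was 51.5 CPM against 8.18 in the other glia-like cells. They held 42.4% of the *Sox9* UMIs (32.1 against 18.1 CPM) and 37.1% of the *Sox10* UMIs (401 against 283 CPM). At E11.5 the highest *Sox8* was in cluster 7, at 20.3 CPM (14.1–28.2), with 35 of 70 UMIs. This cluster, with *Gfra3* and *Dlx1* among its leading genes, also had the highest *Egr2* (47.5 CPM) and *Itga4* (74.7 CPM, an integrin subunit that marks Schwann cell precursors).

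High *Prss56* did not go with high *Sox8* in every cluster. Cluster 8 at E12.5, with the adhesion gene *Cdh3* and the neuropeptide gene *Npy* among its leading genes, had *Prss56* at 311 CPM and *Sox9* at 30 but *Sox8* at only 7.01. Cluster 9, with *Mal* and *Gfra3* among its leading genes, had *Sox9* at 33.5 CPM and *Sox8* at 10.7.

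*Sox9* separated the glia-like clusters along another line. At E12.5 it was lowest in cluster 5, at 7.12 CPM (4.15–11.4), and in cluster 13, at 10.1 (6.17–15.6), while the other 4 clusters lay between 30 and 33.5 CPM. Clusters 5 and 13 are the clusters with the most *Fabp7* (5524 and 6827 CPM), a fatty acid binding protein of early and satellite glia. Cluster 5 is led by the Notch target *Hes5* and had the most *Neurog1* of the glia-like clusters (51.5 CPM). Together they held 42.0% of the glia-like UMIs but 37 of 231 *Sox9* UMIs (16.02%), at 8.48 against 32.2 CPM elsewhere, while for *Sox10* they were at 272 against 350 CPM. At E11.5 the lowest *Sox9* was in cluster 3, at 15.9 CPM (8.88–26.2), and cluster 6, at 17.4 (7.96–33.1). The other 4 glia-like clusters lay between 42.1 and 45.3 CPM. Clusters 3 and 6 again had the most *Neurog1*, at 71.9 and 180 CPM. Cluster 6, with *Plcb1*, *Atoh8*, *Neurog2* and the Notch ligand gene *Dll1* among its leading genes, expressed just 3 of the 12 glia-like markers and had the lowest *Sox10* of any glia-like cluster, at 195 CPM (159–237). Elsewhere *Sox10* stayed between 296 and 349 CPM at E11.5 and between 261 and 406 CPM at E12.5. These pairs of clusters were likewise chosen after their values were seen. Cluster 9 at E11.5 was shallow, with a median of 2840 UMIs, and led by the globin gene *Hbb-y*.

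**Figure D1:**
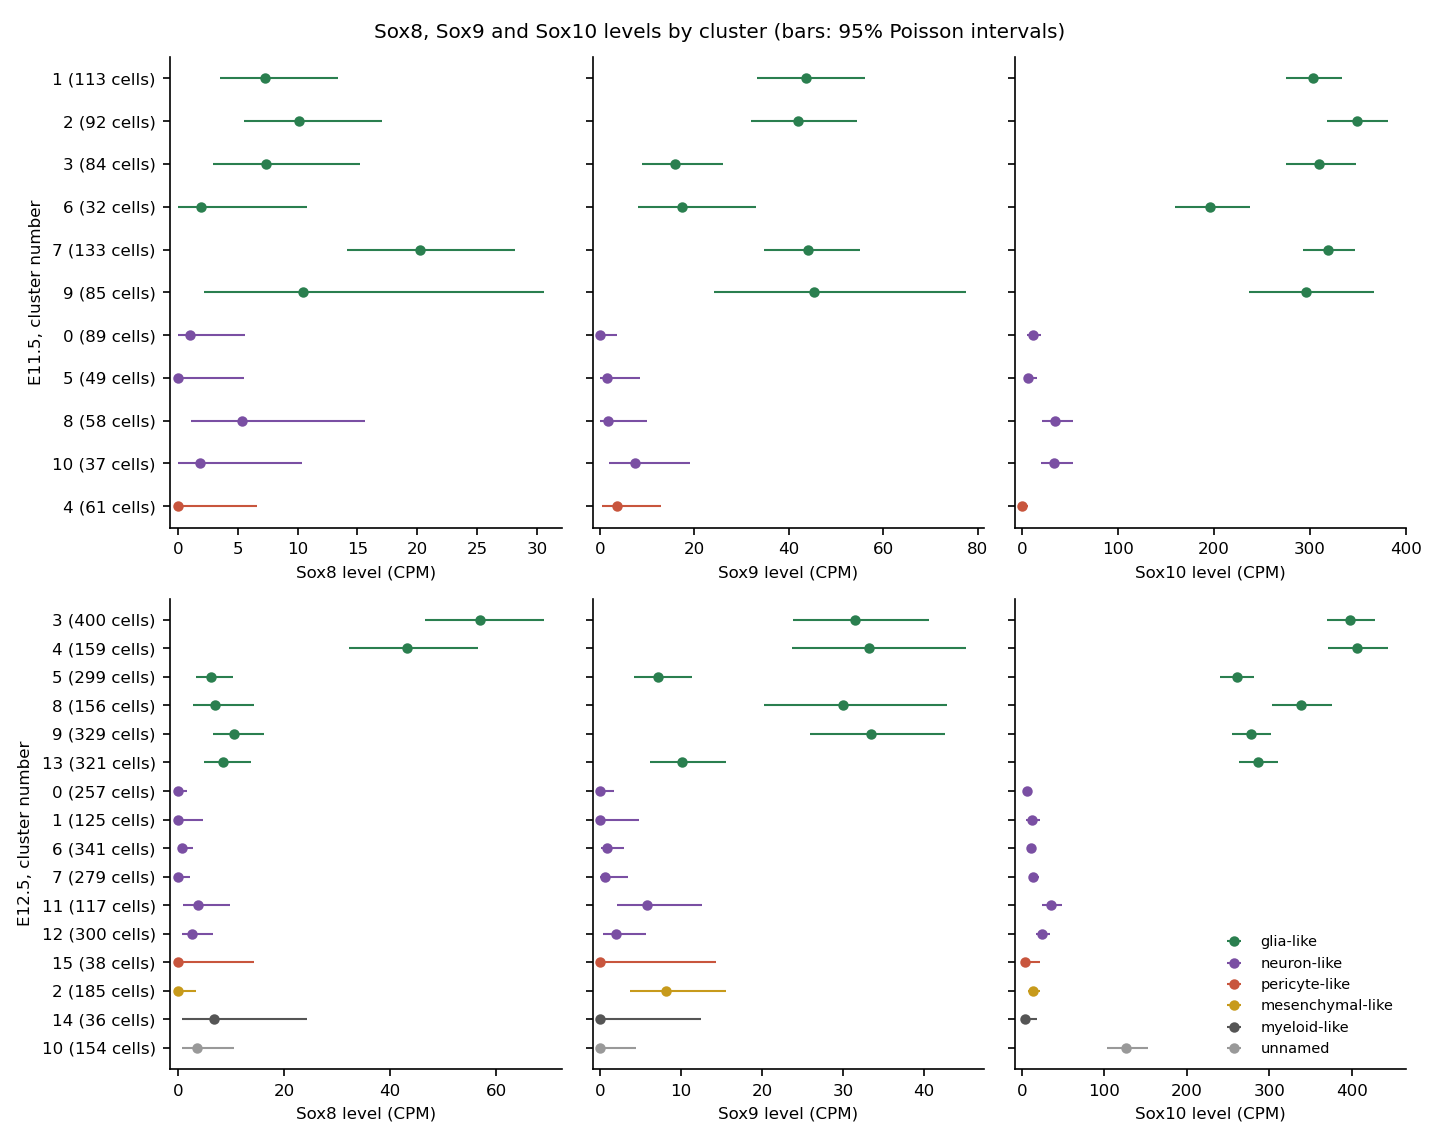
Level in CPM (horizontal axes) of *Sox8*, *Sox9* and *Sox10* in each cluster, E11.5 above and E12.5 below, with points for the summed level and bars for 95% Poisson intervals. *Sox10* is high in every glia-like cluster, *Sox8* stands out in clusters 3 and 4 of E12.5 (56.9 and 43.1 CPM), and *Sox9* is low in clusters 5 and 13 of E12.5 (7.12 and 10.1 CPM) and 3 and 6 of E11.5 (15.9 and 17.4 CPM).

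To follow the genes from glia to neurons, the glia-like and neuron-like cells were sorted by their own UMIs of *Neurog1* and *Isl1* into glia-like cells with neither, cells with *Neurog1* alone, cells with both and cells with *Isl1* alone. At E11.5 *Sox10* was 325 CPM (308–342) in the 386 cells with neither and 289 (257–325) in the 77 cells with *Neurog1* alone. It was 68.8 CPM (59–79.7) in the 204 cells with both and 99.4 (81.4–120) in the 99 cells with *Isl1* alone. The *Neurog1*-alone cells thus kept 89.1% (78.2–101) of the level in glia without either gene, an interval that includes no difference, and the cells with both genes 21.2%. At E12.5 the levels were 326 CPM (314–338) in 1403 cells, 234 (203–269) in 117, 37.95 (31.5–45.3) in 461 and 51.8 (46.7–57.2) in 1064. Here the *Neurog1*-alone cells had 72.0% (62.1–83.1) of the glial level and the cells with both genes 11.7%. Of the *Neurog1*-alone cells, 30 at E12.5 (25.6%) but only 2 at E11.5 were in neuron-like clusters, where *Sox10* at E12.5 was 51.5 CPM (22.3–102). In the other 87 cells, those of glia-like clusters, it was 275 CPM (237–316), or 84.4% of the glial level, a setting added after the data were seen. Within single glia-like clusters of E12.5 with at least 9 *Neurog1*-alone cells, the *Sox10* ratio to cells with neither gene was 0.954 (0.769–1.18; cluster 5, 54 cells), 1.09 (0.763–1.51; cluster 13, 17 cells) and 1.22 (0.740–1.91; cluster 9, 9 cells), each with an interval that includes 1.

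In both libraries the largest step of *Sox10* CPM was between cells with *Neurog1* alone and cells that also had *Isl1*. Thinned to 2000 UMIs, *Sox10* was found in 52.3%, 40.3%, 8.33% and 18.2% of cells along the 4 groups at E11.5, and in 47.0%, 29.8%, 4.87% and 6.82% at E12.5. Unthinned, the E11.5 shares were 88.6%, 90.9%, 31.9% and 39.4%, so that the direction between the first pair of groups changed with thinning. At E12.5 they were 77.5%, 65.8%, 14.3% and 17.3%. The median depths of the groups were 11701.5, 13309, 12224 and 10638 UMIs at E11.5 and 5682, 6937, 6624 and 6624.5 at E12.5. Cells with *Isl1* alone include cells of glia-like clusters. At E11.5, clusters 1, 2, 3, 6, 7 and 9 held 7, 9, 5, 4, 5 and 14 of the 99 cells. At E12.5, clusters 3, 4, 5, 8, 9 and 13 held 23, 17, 35, 13, 23 and 36 of the 1064. Of the 204 cells with both genes at E11.5, glia-like clusters 2, 3, 6 and 9 held 3, 8, 19 and 4. Of the 461 at E12.5, glia-like clusters 5, 8, 9 and 13 held 20, 2, 2 and 3. Levels of the SoxE genes with *Isl1*, alone or beside *Neurog1*, are thus not those of neurons only. Whether the *Isl1* UMIs of the glia-like cells are stray was not tested. When 2 UMIs were required for *Neurog1* or *Isl1* to count, *Sox10* in *Isl1*-alone cells was 11.47% of the glial level at E11.5 in place of 30.6%. At E12.5 it was 4.39% in place of 15.9%. The order of the last pair of groups depends on this choice, since at E11.5 the cells with both genes were then at 13.96%, above those with *Isl1* alone.

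*Sox9* was lower in the cells with *Neurog1* alone than in glia-like cells with neither gene. At E11.5 it was 46.0 CPM (39.9–52.9) with neither gene, 21.2 (13.1–32.3) with *Neurog1* alone, 3.13 (1.35–6.16) with both and 7.51 (3.24–14.8) with *Isl1* alone. At E12.5 these were 23.9 (20.8–27.5), 11.7 (5.59–21.4), 2.47 (1.07–4.86) and 3.26 (2.09–4.85) CPM. The *Neurog1*-alone level was 46.0% (27.8–72.2) of the glial level at E11.5 and 48.7% (23.0–91.4) a day later. In the 87 *Neurog1*-alone cells of glia-like clusters at E12.5 it was 12.8 CPM (5.86–24.3), which overlaps the interval with neither gene. Set against *Sox10* in the same cells, *Sox9* went from 14.2 UMIs per 100 *Sox10* UMIs with neither gene to 7.32 with *Neurog1* alone at E11.5, a ratio of 0.516 (0.307–0.828). At E12.5 it went from 7.35 to 4.98, a ratio of 0.677 (0.315–1.30) whose interval includes 1.

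The *Neurog1*-alone cells were also spread over the clusters in another way. Of these cells, 33.8% at E11.5 were in cluster 3 and 46.2% at E12.5 in cluster 5, both low in *Sox9*, against 11.7% and 13.5% of the cells with neither gene. Within cluster 3 of E11.5 the *Sox9* level with *Neurog1* alone was 1.25 times (0.346–4.33) that with neither gene, and within cluster 5 of E12.5 it was 1.67 times (0.441–5.56). In clusters 1 and 2 of E11.5 the same ratio was 1.11 (0.426–2.46) and 0.301 (0.0936–0.748). For *Sox10* it was 1.05 (0.806–1.35) within cluster 3 and 0.954 (0.769–1.18) within cluster 5. Of these 4 comparisons of *Sox9*, only that in cluster 2 lay beyond counting error. In cluster 6 of E11.5 the *Sox9* ratio was 0.0248 (0.00054–0.205), also beyond counting error, but just 2 cells there had neither gene. In the remaining glia-like clusters of both libraries the ratio lay on either side of 1, with intervals that include 1.

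*Sox8* had the fewest UMIs along these groups. At E11.5 its levels were 13.3 CPM (10.1–17.3), 9.07 (4.15–17.2), 1.56 (0.426–4.0) and 3.75 (1.02–9.61), in the same order. At E12.5 they were 23.8 (20.6–27.4), 3.5 (0.722–10.2), 2.16 (0.868–4.45) and 2.17 (1.24–3.53). *Sox8* in *Neurog1*-alone cells was 67.9% (29.6–138) of the glial level at E11.5 and 14.7% (3.0–43.5) a day later. However, clusters 3 and 4, with most of the *Sox8* UMIs at E12.5, held just 3 and 2 of the 117 *Neurog1*-alone cells. Within clusters 5 and 13 of E12.5 the *Sox8* ratio to cells with neither gene was 0.274 (0.00636–1.88) and 0.828 (0.0197–5.33), so that no difference within a cluster was detectable at this depth.

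**Figure D2:**
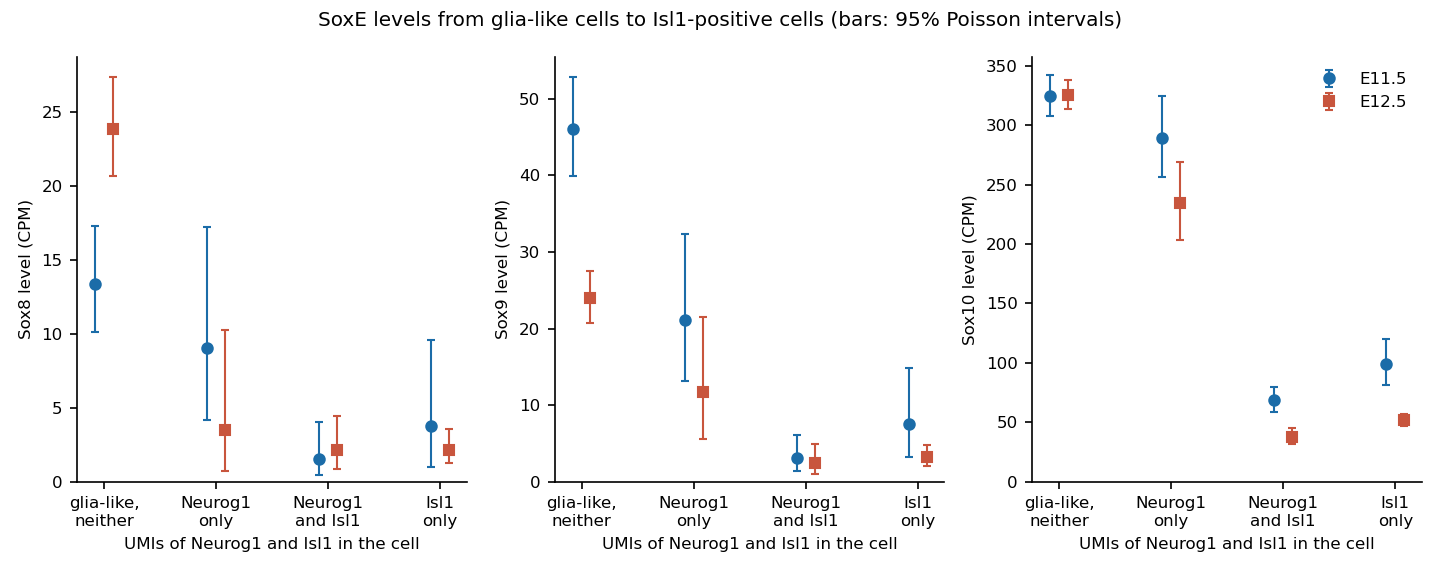
Level in CPM (vertical axes) of each SoxE gene in glia-like cells with neither *Neurog1* nor *Isl1*, cells with *Neurog1* alone, with both, and with *Isl1* alone, for both stages, with 95% Poisson intervals. *Sox10* in *Neurog1*-alone cells is at 289 CPM at E11.5 and 234 a day later, against 325 and 326 with neither gene. With both genes it is at 68.8 and 37.95 CPM. *Sox9* in *Neurog1*-alone cells is at 21.2 and 11.7 CPM, against 46.0 and 23.9 with neither gene.

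Levels also followed the number of UMIs of these genes in a cell. From cells with no *Isl1* UMI through those with 1 to 2, 3 to 5, 6 to 10 and 11 or more, *Sox10* at E11.5 was 317, 251, 111, 40.2 and 10.6 CPM. At E12.5 it was 314, 174, 27.1, 13.9 and 8.34 CPM. *Sox9* at E12.5 was 22.5, 10.9, 2.17, 0.677 and 0.556 CPM, and *Sox8* 21.8, 8.61, 0.542, 0.338 and 0.556. In the 416 cells of E12.5 with the most *Isl1*, *Sox10* (5.63–11.9 CPM) lay within the interval of the mesenchymal-like cells (6.98–21.4 CPM) or below it, and thinned shares were 0.962% and 0.575%. The E11.5 cells with the most *Isl1* lay at 6.45–16.3 CPM. In the pericyte-like cells of that library, which had 0 *Sox10* UMIs, the Poisson interval reached up to 6.63 CPM and so overlapped slightly. The limit of 3 counts, used elsewhere for a count of 0, is 5.39 CPM and lies below 6.45. Across *Neurog1* UMIs the fall was less even. With 0, 1, 2, 3 to 5 and 6 or more *Neurog1* UMIs, *Sox10* was 279, 169, 167, 123 and 50.3 CPM at E11.5 and 196, 82.8, 77, 73.8 and 21.7 CPM at E12.5, where just 10 cells are in the last group. *Sox9* over these groups was 38.3, 11.497, 13.4, 4.03 and 3.97 CPM at E11.5. The groups with no *Neurog1* UMI hold mature neuron-like cells as well as glia. Those with *Neurog1* UMIs together pool cells without and with *Isl1*. In these *Sox10* was 289 and 68.8 CPM at E11.5 and 234 and 37.95 at E12.5, so a level between need not be that of single cells.

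**Figure D3:**
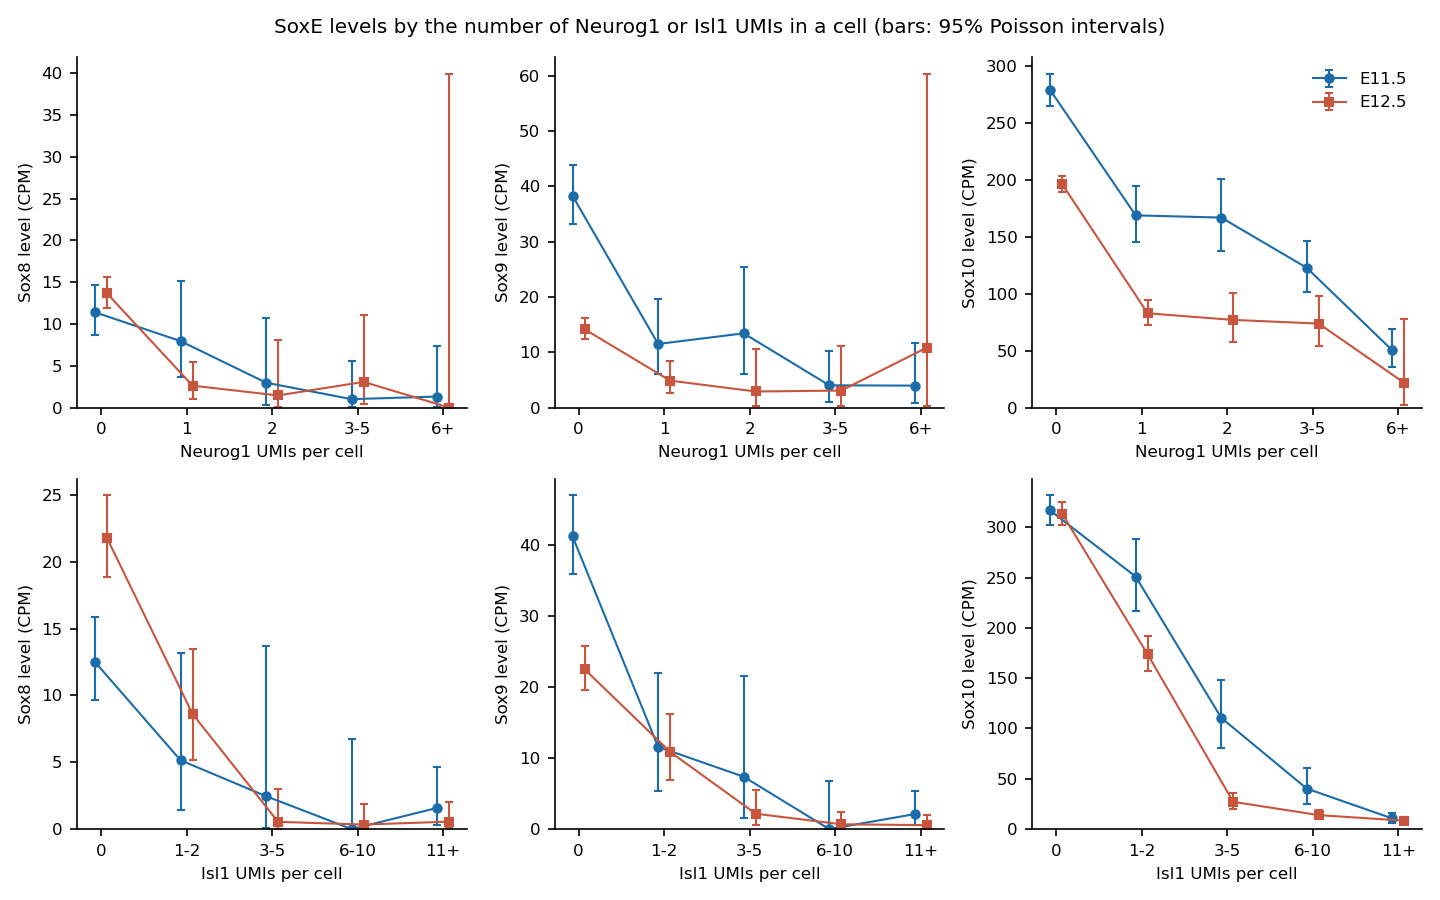
Level in CPM (vertical axes) of each SoxE gene in glia-like and neuron-like cells grouped by their *Neurog1* or *Isl1* UMIs (horizontal axes), for both stages, with 95% Poisson intervals. *Sox10* goes from 317 to 10.6 CPM at E11.5 and from 314 to 8.34 at E12.5 with more *Isl1* UMIs, and keeps an intermediate level over cells with 1 to 5 *Neurog1* UMIs.

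Between glia and neurons, the unnamed cluster of E12.5 held *Neurog1* (162 CPM) and *Isl1* (211 CPM) together with *Sox10* at 126 CPM (103–153, 105 UMIs in 67 of 154 cells). Its leading genes include *Plcb1* and *Prelp*. *Sox10* stood at 39.7% (32.4–48.2) of the glia-like level, *Sox8* at 3.6 CPM (3 UMIs) and *Sox9* at 0, which allows up to 3.6 CPM, or 1.95% of its cells. Adding these cells changed *Sox10* in cells with both *Neurog1* and *Isl1* from 37.95 to 45.7 CPM (502 cells). Among neuron-like clusters, *Sox10* was highest in those with *Mybl1*, *Vxn*, *Insm1*, *Dll1* or *Prelp* among their leading genes, at 33.9 and 33.4 CPM at E11.5 and 34.8 and 24.8 CPM at E12.5. It was lowest in the clusters led by genes such as *Scn9a*, a sodium channel of sensory and sympathetic neurons, at 6.04 and 5.92 CPM. In cells with both *Neurog1* and *Isl1*, the *Sox10*-positive ones were deeper and had higher doublet scores. Their medians were 13481 against 11781 UMIs and 0.028 against 0.0179 at E11.5, and 7763.5 against 6517 UMIs and 0.0324 against 0.0236 at E12.5. In *Neurog1*-alone cells they were 14627.5 against 2906 UMIs and 0.0534 against 0.0215 at E11.5 (70 and 7 cells), and 7958 against 5476.5 UMIs and 0.0393 against 0.0236 at E12.5. *Sox10* was counted here without thinning, so a deeper cell is more likely to be positive. The differences in depth are therefore partly set by this gate, and whether the doublet scores follow depth was not tested. The part of undetected doublets in these cells was not tested either.

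In single glia-like cells *Sox10* was the gene most often found, and *Sox8* and *Sox9* were mostly found in cells that also had it. Unthinned, 58.8% (E11.5) and 61.5% (E12.5) of glia-like cells had *Sox10* alone of the 3 genes. *Sox9* with *Sox10* but no *Sox8* was the next combination at E11.5 (19.1%). Glia-like cells with at least 1 of the 3 made up 90.9% and 80.9%, and all 3 met in 19 cells (3.53%) and 25 cells (1.5%). Of *Sox9*-positive cells 89.1% and 85.6% also had *Sox10*, and of *Sox8*-positive cells 96.4% and 86.2%. At E11.5 *Sox10* was about as frequent without *Sox9*, at 87.6% (83.9–90.6) against 89.1% (82.6–93.7) with it. By *Sox8* it was in 87.0% (83.6–89.8) without and 96.4% (87.7–99.6) with the gene, intervals that overlap. At E12.5 *Sox10* was more frequent in positive than in negative cells. It was in 86.2% (80.1–91.1) with and 77.1% (74.9–79.2) without *Sox8*. By *Sox9* it was in 85.6% (79.7–90.4) with and 77.1% (74.8–79.2) without the gene. Unthinned shares depend on the depth of a cell.

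Thinned to equal depth, the genes overlapped about as often as the product of their separate shares, with an exception for *Sox8* and *Sox10*. *Sox9* and *Sox10* were found together in 19 cells at E11.5 (3.53% against a product of 3.21%) and in 27 at E12.5 (1.71% against 1.82%). *Sox8* and *Sox10* were together in 8 cells at E11.5 (1.48% against 1.25%) and in 40 at E12.5 (2.53% against 1.79%). In that library 64.5% (51.3–76.3) of *Sox8*-positive and 45% (42.5–47.6) of *Sox8*-negative glia-like cells had *Sox10*, intervals that do not overlap. The clusters with most *Sox8* were also those with the most *Sox10*. *Sox8* and *Sox9* met in 0 thinned cells at E11.5, which allows up to 0.557%, and in 3 at E12.5 (0.19% against 0.156%). Without thinning they met in 20 cells (3.71% against 2.64%) and 26 cells (1.56% against 1.09%).

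**Figure D4:**
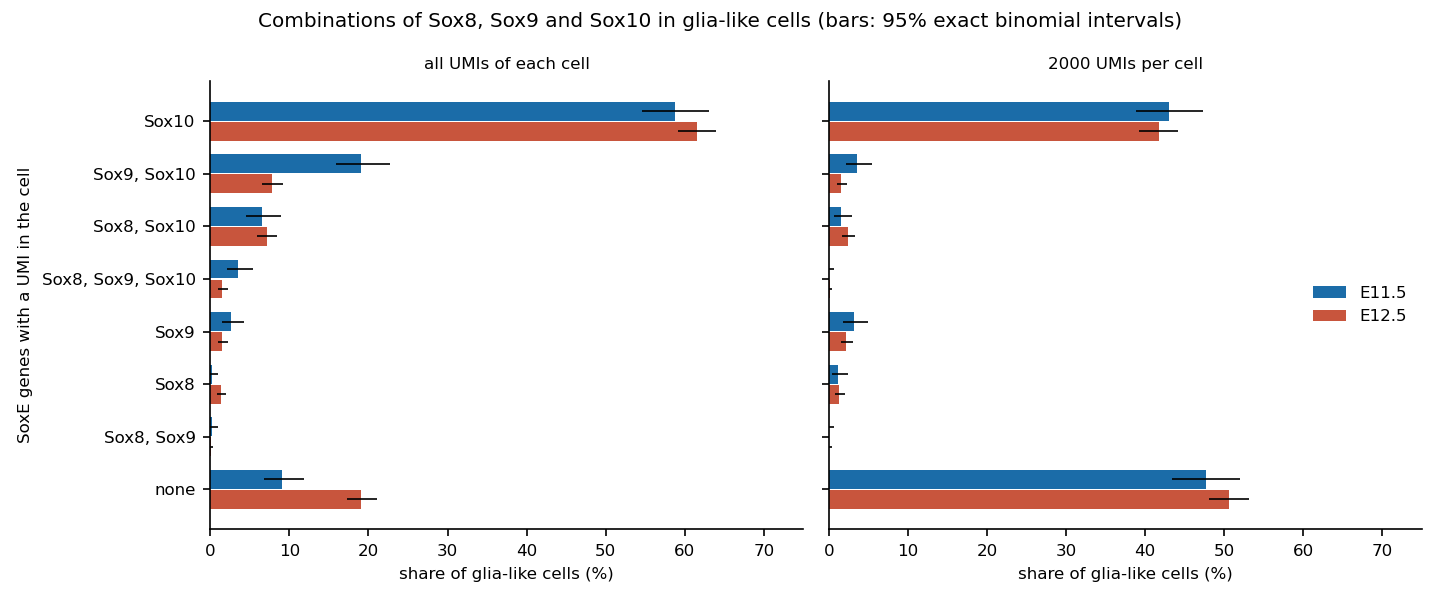
Share of glia-like cells (horizontal axes, percent) with each combination of *Sox8*, *Sox9* and *Sox10*, for both stages, without thinning and thinned to 2000 UMIs per cell, with 95% exact binomial intervals. *Sox10* alone is the most frequent unthinned combination, at 58.8% and 61.5%, and all 3 genes meet in 3.53% and 1.5% of cells.

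Outside the glia-like and neuron-like clusters, few or no SoxE UMIs were found in pericyte-like cells, contractile cells of small vessels. At E11.5 their 61 cells (median 8252 UMIs) had no UMI of *Sox10* or *Sox8*, which allows up to 5.39 CPM, and 2 UMIs of *Sox9* in 2 cells (3.6 CPM, 0.436–13). At E12.5 the 38 cells had 1 *Sox10* UMI (3.88 CPM, 0.0981–21.6) and none of *Sox8* or *Sox9*, which allows up to 11.6 CPM. Without the doublet filter *Sox10* there was 7.17% of the glia-like level in place of 1.22%. Both clusters expressed 8 of the 10 pericyte-like markers. The 36 myeloid-like cells had *Sox10* at 3.37 CPM, 2 *Sox8* UMIs in 1 cell and no *Sox9* UMI.

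Mesenchymal-like cells, found at E12.5 with 10 of 11 markers were led by *Osr1*, *Dcn* and *Lum*. Their 185 cells (median 5745 UMIs) had 9 *Sox9* UMIs in 9 cells, or 8.21 CPM (3.75–15.6), of which 1 cell also had *Sox10*. This interval overlaps the levels that the pericyte- and myeloid-like cells allow. *Sox10* was at 12.8 CPM (6.98–21.4, 14 UMIs in 12 cells), and *Sox8* was at 0, which allows up to 2.74 CPM, or 1.62% of cells. To set these beside other glial genes, each level was taken in percent of that in glia-like cells and put beside the 11 glia-like markers with at least 100 UMIs. Free RNA in the droplets was not estimated. Whether it, doublets or the cells' own expression sets these levels was not tested. *Sox10* was at 4.02% (2.2–6.76), near the markers' median of 3.57%. *Sox9* was at 36.9% (16.7–71.3), above each of these markers, which reached at most 17.3% (*Serpine2*, a protease inhibitor), although its interval reaches down to that of the highest. By thinned shares *Sox9* was in 1.15% of 174 mesenchymal-like cells, that is, in 2 cells. At least 1 SoxE gene was found in 20 of the 185 cells (10.8%).

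The same measure in neuron-like cells gave 4.73% (3.97–5.59) for *Sox10*, 5.63% for *Sox9* and 4.99% for *Sox8* at E12.5, beside a median of 2.51% (1.0 to 14.1) over the markers. At E11.5 it was 6.1% (4.54–8.03), 5.87% and 16.1%, beside a median of 4.39%. The SoxE genes thus lay within the range of the glial markers in neuron-like cells, which at E11.5 was 0 to 17.3%. Of the markers, only *Serpine2* was above *Sox8* at E11.5 (5.08–39.5, from 5 UMIs). At E12.5 the interval of *Sox10* lay above the markers' median, and only *Foxd3*, *Ttyh1* and *Serpine2* were above *Sox10*. In the unnamed cluster, *Sox10* at 39.7% was beside a marker median of 32.3% (2.57 to 63.9).

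**Figure D5:**
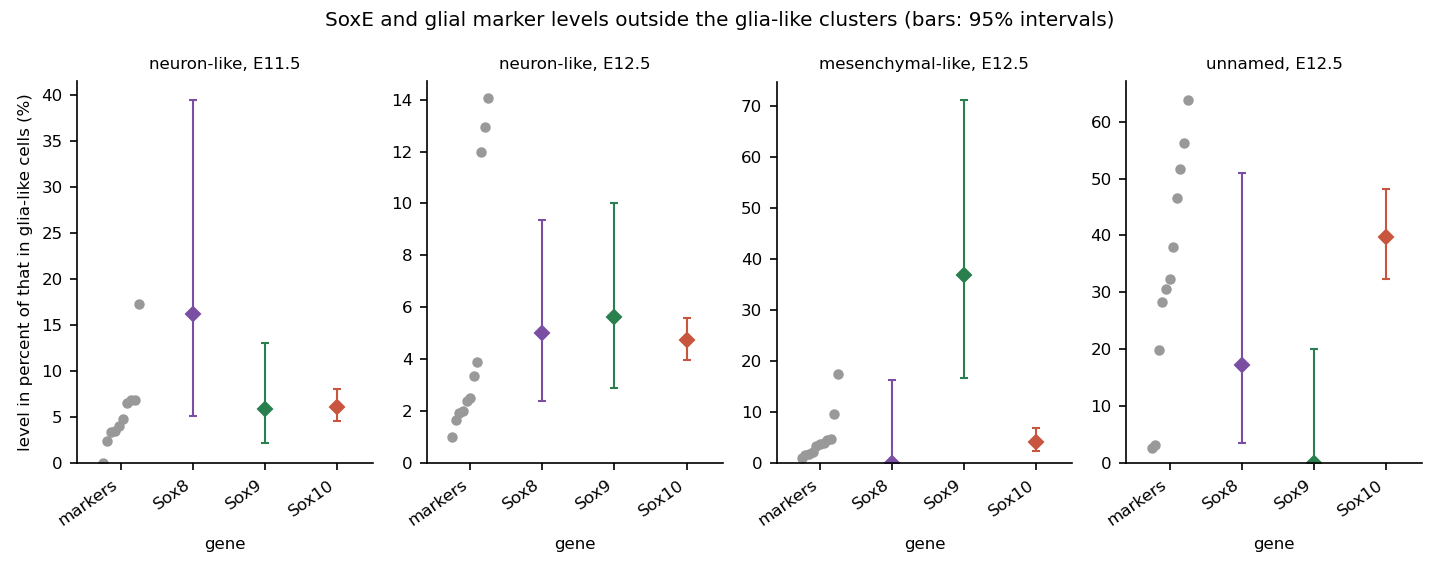
Level in percent of the glia-like level (vertical axis) of the SoxE genes and of the glia-like markers with at least 100 glia-like UMIs, in classes other than glia, with 95% intervals on the SoxE genes. In mesenchymal-like cells *Sox9* is at 36.9%, above the markers (at most 17.3%), while *Sox10* is at 4.02%.

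Within the glia-like cells, the SoxE genes were compared between cells with and without a thinned UMI of 6 genes that mark states of the lineage. Cells with *Prss56* had more *Sox9* at both stages, 1.71 times (1.13–2.5) at E11.5 (48 cells) and 1.5 times (1.08–2.04) at E12.5 (316 cells). At E12.5 they also had more *Sox8* (1.58 times, 1.14–2.17) and slightly more *Sox10* (1.17 times, 1.07–1.27). Cells with *Egr2* had 2.32 times (1.48–3.52) the *Sox8* at E12.5 (96 cells), against 1.03 times for *Sox10* and 1.56 times (0.922–2.51) for *Sox9*. At E11.5 the *Sox8* ratio was 0.549 (0.0652–2.06; 29 cells) by *Egr2* and 0.668 (0.177–1.79) by *Prss56*, both with intervals that include 1. Cells with the Notch target *Hes5* went the other way at E12.5 (80 cells), with *Sox8* at 0.377 times (0.121–0.894) and *Sox9* at 0.435 times (0.158–0.963), while *Sox10* was 0.888 times (0.758–1.03). At E11.5, with 14 *Hes5*-positive cells, *Sox9* was 1.19 times (0.472–2.49) and *Sox8* 0.550 times (0.0137–3.17). Cells with *Itga4* had 1.81 times (1.14–2.74) the *Sox9* at E11.5 (35 cells), and 1.39 times (0.778–2.31) at E12.5 (86 cells).

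*Prdm12*, a regulator of pain-sensing neurons, marked 36 glia-like cells at E12.5 with *Sox8* at 0.201 (0.00506–1.13, from 1 UMI) and *Sox9* at 0.781 times (0.211–2.03) the level of the other cells. At E11.5 *Sox9* was at 0.153 times (0.0184–0.56) in *Prdm12*-positive cells. *Gata2*, a factor of autonomic neuron development, marked 42 cells at E12.5, with *Sox9* at 1.72 times (0.815–3.24). At E11.5 it marked just 4 cells, with *Sox9* at 4.70 times (1.51–11.1, from 5 UMIs), a ratio that was 0 with at most 5% mitochondrial UMIs. Cycling cells, with 2 or more of 6 cell cycle genes, had *Sox9* at 0.852 (0.653–1.11; 268 cells) and 0.797 times (0.602–1.05; 592 cells) and *Sox10* at 0.939 and 1.02 times the level of the other glia-like cells. Apart from *Sox9* by *Prdm12* and by *Gata2* at E11.5, the intervals printed here include 1.

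Known or likely targets of SoxE factors were mostly higher in glia-like cells too. Of 22 listed targets, 14 had at least 100 UMIs at E11.5 and 18 a day later. At E11.5 11 of the 14 were at least 2-fold higher in glia-like than in neuron-like cells and 1 lower, with a median log2 ratio of 4.10 against 0.13 over all genes. At E12.5 14 of the 18 were higher and 1 lower, with a median of 4.08 against 0.12. Of the list, 9 genes are also glia-like markers, so part of this is how the clusters were named. At E12.5 high ratios were those of the connexin gene *Gjc3* (78.95, 21.5–657) and the Schwann cell signal *Dhh* (52.1, 25.1–130). The lowest were *Nfia* (0.418), a gliogenic factor, the collagen gene *Col9a3* (0.719) and the melanocyte regulator *Mitf* (1.87).

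Of the Sox family beyond SoxE, some genes were higher and some lower in glia-like cells. Of 16 genes listed, 6 had enough UMIs at E11.5, of which 3 were at least 2-fold higher in glia-like cells and 1 lower, and 7 at E12.5, of which 4 were higher and 1 lower, beside the 15% and 8.33% (E11.5) and 19.9% and 11.7% (E12.5) over all genes given above. *Sox5*, *Sox2* and *Sox6* were higher, by 5.62, 5.46 and 2.05 times at E11.5 and by 8.49, 7.97 and 3.83 times at E12.5. *Sox5* and *Sox6* encode SoxD proteins, which lack an activation domain, and *Sox2* is a progenitor factor. The SoxC genes *Sox11*, *Sox4* and *Sox12*, of which the former pair acts in young neurons, had ratios of 0.271, 0.794 and 0.877 at E11.5 and 0.150, 0.822 and 0.889 at E12.5.

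*Sox9*-positive and *Sox9*-negative cells were then compared among the *Sox10*-positive glia-like cells, both gated on thinned counts. There were 19 positive and 240 negative cells at E11.5 and 27 and 698 at E12.5, with median depths of 5849 against 11689.5 UMIs at E11.5 and 5842 against 5810 at E12.5. Of 4494 genes tested at E11.5, 32 (0.712%) were at least 2-fold higher in the *Sox9*-positive cells and 153 (3.4%) lower. At E12.5 82 of 6262 (1.31%) were higher and 412 (6.58%) lower. With just 19 and 27 *Sox9*-positive cells, a gene can have few UMIs in them. Counting error alone can then carry it past 2-fold, and more readily downward than upward. Whether the excess of lower genes goes beyond this was not tested, so it should not be read as a property of *Sox9*-positive glia. Of 4464 genes tested at both stages, 2254 had the same direction, about as many as had opposite ones. The genes highest at both stages were *Akr1b8*, an aldo-keto reductase (1.75, 1.11–2.67, and 2.03, 1.36–2.93), *Wwtr1*, which encodes the Hippo effector TAZ (1.76 and 1.72), *Vti1b* (1.83 and 1.71), *Ensa* (1.66 and 1.67) and the lysyl hydroxylase gene *Plod2* (1.68 and 1.66). The lowest were *Mfap4*, a microfibril protein (0.217, 0.026–0.8, and 0.310, 0.1–0.731), *Gkap1* (0.378 and 0.278), *Atad2* (0.409 and 0.390), *Tagln3*, a neuronal calponin family member (0.421 and 0.366), and *Spsb4* (0.347 and 0.459). The intervals of *Vti1b*, *Ensa*, *Tagln3* and *Spsb4* include 1 at both stages. These values rest on few cells and have no replicate.

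Across clusters, the genes whose level was most like that of each SoxE gene were found by Pearson r of log2(CPM + 1), averaged over the libraries (11 and 16 clusters, 8449 genes). The clusters of a library share its depth and its free RNA, so r is a description. Among the genes most like *Sox10* were *Psat1* (0.97), an enzyme of serine synthesis, *Cmtm5* (0.96), *Moxd1* (0.96) and *Gm10863* (0.95). *Sox9* was most like *Lypd6* (0.94), *Plekha4* (0.93), *Lmo4* (0.93), a LIM-only cofactor, *Tspan7* (0.92) and *Lef1* (0.92), a nuclear effector of Wnt signalling. *Sox8* was most like the adhesion gene *Igsf11* (0.90), *Cyp2j6* (0.89), *Ubl3* (0.89), the phosphatase gene *Ptprj* (0.89) and *Cdh19* (0.87), a cadherin of Schwann cell precursors. Among the members, r was 0.75 for *Sox8* and *Sox9*, 0.84 for *Sox8* and *Sox10*, and 0.81 for *Sox9* and *Sox10*.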

How the data were processed

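Gene by cell matrices of 2 libraries were used, one per stage; the *Prss56-Cre* library was not analysed here. The authors deposited raw UMI counts, made with Cell Ranger (7.0 per the processing notes, 7.0.1 in the header) on mm39. Gene positions and sequences are from GENCODE M39 on GRCm39. The study's filters were applied: at most 10% mitochondrial UMIs, at least 2000 (E11.5) or 1000 (E12.5) UMIs, and a Scrublet doublet score under 0.2, which removed 7 and 67 cells. Of 1431 and 3762 barcodes, 833 and 3496 were kept. The paper then extracted cells of the BCC lineage from each dataset, a step not taken here, so all kept cells were clustered. Clusters came from 3000 variable genes, 30 components, 15 neighbours and Leiden resolution 1 (python 3.11.15, scanpy 1.11.5, igraph 0.11.9, scikit-learn 1.9.0), with 6 genes left out. A cluster was named by the list of which it expressed the largest part, 3 markers or more, each found in 20% of its cells and with a mean no lower than the maximum over clusters divided by 3. Of 13 lists, the endothelial-, erythroid-, melanoblast-, muscle-, cartilage-, epithelial-, CNS progenitor- and motor neuron-like lists named no cluster. A cell was positive with 1 UMI. Thinning was 1 random draw, leaving out shallower cells. Shares have exact Clopper-Pearson and CPM ratios exact conditional intervals (scipy 1.17.1); a count of 0 is given the limit of 3 counts. All cover counting error only. Ratios were tested on simulated data. Members, lists and tests were chosen with earlier results of these data known. The text names the members, the 5 genes most like each, the 3 furthest each way of both lists, the 5 furthest each way at both stages between *Sox9*-positive and *Sox9*-negative glia, and the gate genes; leading genes of clusters were added after values were seen. Some genes that this rule names are not reported here.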

Additional observations from a re-analysis of the deposited data

Results flagged for a closer look

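The barcodes that the filters removed, which no comparison uses, held SoxE UMIs as well. These barcodes were not sorted into classes. At E11.5 *Sox10* was 295 CPM (257–337) in 598 barcodes with a median of 924 UMIs. In all kept cells it was 208 CPM and in glia-like cells 309. At E12.5 it was 192 CPM (166–221) in 266 barcodes with a median of 800 UMIs, beside 159 in all kept cells and 318 in glia-like cells. *Sox9* was at 29.5 and 15.9 CPM in the same barcodes, and *Sox8* at 14.8 and 10.96 CPM.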

How the results depend on the processing

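No paired analysis was possible because each stage has 1 library. For the same reason no library could be left out. Of 404 values recomputed for 50 results taken as the main ones, 356 moved by less than their counting interval, 46 moved further and 2 reversed. Of 793 values for the 93 other results, 643, 149 and 1 did so. The other results are single levels and shares, but also some comparisons. These are the ratios by gate gene and the *Sox8* and *Sox9* shares in percent of the glial share. Among the 404, numbers of genes have no counting interval and were judged by a fixed fold instead. The cause of the moves was not tested.

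With 15 components the *Sox10* ratio of glia-like to neuron-like cells at E12.5 was 17.6 (21.1 as reported), and with Leiden resolution 0.5 it was 14.6, and 6.84 at E11.5 (16.4). *Sox10* CPM in cells with *Neurog1* and *Isl1* at E12.5, 11.7% of the glial level as reported, was 14.1% with either change, 15.3% with at least 5000 UMIs per cell and 14.2% with at most 5% mitochondrial UMIs. Chosen after seeing the data, adding the unnamed cluster made it 14.03%, and leaving out the weakest 2 glia-like clusters of E11.5 made it 14.5% there (21.2%). With *Neurog1*-alone cells of glia-like clusters only, *Sox10* in them at E12.5 was 84.4% of the glial CPM (72.0%) and 84.1% of the glial share (63.5%). The *Sox10* share of *Neurog1*-alone cells at E11.5, 76.9% of the glial share, reversed to 110% with at least 5000 UMIs and to 103% without thinning. At E12.5 (63.5%) it was 84.9% without thinning and 87.9% thinned to 5000 UMIs. In cells with both genes it was 35.96% (15.9%) at E11.5 without thinning and at E12.5 (10.4%) 18.5% without thinning, 19.4% thinned to 5000 UMIs and 20.5% with at least 5000 UMIs. In *Isl1*-alone cells at E12.5 (14.5%) it was 22.3% without thinning, 20.6% with at least 5000 UMIs and 18.7% with at most 5% mitochondrial UMIs. With 2 UMIs for a positive cell, the shares were 24.7% (E11.5) and 32.0% (E12.5) in *Neurog1*-alone cells, 9.31% and 1.35% with both genes, and 8.89% with *Isl1* alone at E12.5. The overlap over the product was then 0 for *Sox9* and *Sox10* at E11.5 (1.1) and for *Sox8* and *Sox9* at E12.5 (1.22), and 7.19 and 3.77 for *Sox8* and *Sox10* (1.19 and 1.41). The overlaps with *Sox8* rest on very few cells. Even without thinning, just 11 of 56 *Sox8*-positive glia-like cells at E11.5 held 2 or 3 UMIs, and none held more. At E12.5, 28 of 167 held 2 or 3 and 4 held 4 or more. The numbers left after thinning are lower, so no overlap or lack of it should be read from these values. With 2 UMIs for *Neurog1* or *Isl1*, CPM at E12.5 in percent of the glial level was 2.71 (13.6) for *Sox9*, 2.05 (9.12) for *Sox8* and 4.39 (15.9) for *Sox10* in *Isl1*-alone cells, and 18.1 (48.7), 0 (14.7) and 59.8 (72.0) in *Neurog1*-alone cells. At E11.5 *Sox10* was 11.47 (30.6) in *Isl1*-alone cells and 13.96 with both, and its share in *Isl1*-alone cells 12.1 (34.7), and 5.02 at E12.5. Without the doublet filter *Sox10* at E12.5 was 7.17% of the glia-like level in pericyte-like cells (1.22%) and 6.92% in mesenchymal-like cells (4.02%). Between *Sox9*-positive and *Sox9*-negative glia, genes higher at E12.5 numbered 129 with at least 5000 UMIs and 141 with at most 5% mitochondrial UMIs (82), the latter giving 50 higher and 258 lower at E11.5 (32 and 153), where no doublet filter gave 70 higher. With at most 5% mitochondrial UMIs the *Sox9* ratio of *Gata2*-positive glia at E11.5 was 0 in place of 4.70. Depth limits *Sox8* and *Sox9* most, since most of their positive cells hold 1 UMI.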
